A study of Zea mays with 6 samples.

Results

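The genes described are the cytosolic ribosomal protein genes and translation factor genes of maize that could be named on an Affymetrix maize array. A gene belonged to them when its symbol or a RefSeq synonym read rpl, rps or rpp followed by a number, or began with elfa, eif or ef1, in any case. The rule found 28 of the 1108 genes that had a probe set paired with a single gene, and it used names only, no measured value. They comprised 6 genes of the large ribosomal subunit, 6 of the small subunit, 6 acidic P proteins, 6 initiation factors and 4 elongation factors. The plastid ribosomal protein gene prpl35-1 was left out. The name of RPS10 does not say whether its protein serves cytosolic or mitochondrial ribosomes, so the count is also given without it. Of the 28 genes, 27 were found in the RefSeq table, each on a nuclear chromosome, and RPL27A was known by its symbol on the array alone.

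Cytosolic ribosomes translate the messages of nuclear genes, those for most chloroplast proteins included. Each ribosome has a small subunit, which reads the message, and a large subunit, which joins the amino acids. Acidic P proteins form a flexible stalk on the large subunit that recruits the elongation factors. Initiation factors bring the message to the small subunit and select the start codon, and elongation factor 1-alpha delivers aminoacyl-tRNAs. In plant leaves, ribosomal protein transcripts are known to be abundant where cells grow and build organelles.

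Leaf 3 of the inbred line A661 was taken from plants that had spent 3 weeks at 15 °C and 1 further week at 25 °C. By then the leaf had a distal section that lacked chlorophyll, called CL, and a proximal section that held it, called CC, and the 2 cm of each nearest the border were sampled. Total RNA of 3 biological replicates per section was labelled with biotin and read on 1 array each, with CC as the control. All plants shared the line, the cold period, the recovery and the recorded light regime. Days lasted 14 h at 228 µmol per square metre and second, and nights lasted 10 h. CL was always distal to CC, so a lack of chlorophyll and a distal place cannot be told apart. Nor can anything else that may differ along the leaf, such as the tissue's age or the temperature at which it formed. The labels number the replicates of both sections alike, but do not say whether arrays of the same number share plants, or whether a replicate was 1 plant or a pool.

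Values are log2 expression values after RMA, which subtracts background, equalises the arrays' distributions and combines the probes of a set. Array medians lay between 6.29 and 6.36, and the Pearson correlation of 2 arrays over the 17555 probe sets was at least 0.989 inside a section and at most 0.982 across sections. With 3 arrays per section, the number of arrays limits the precision. Of 7 photosystem and antenna genes, 3 fell and 0 rose in CL, and the magnesium chelatase gene ChlI (synonym oy1) of chlorophyll synthesis fell by 0.67 on the log2 scale (SE 0.11, limma adjusted p = 0.00707). The mean log2 value of the 7 genes lay at 12.32 to 12.58 in CL, below the 12.87 to 12.98 of CC.

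Setting CL against CC shows which transcripts differ between the neighbouring sections of a leaf. Of the 28 ribosomal and translation factor genes, 20 rose in CL, 0 fell and 8 did not pass a limma adjusted p of 0.05, with adjustment over all 17555 probe sets. Among all 1108 annotated genes 18.7% rose and 19.9% fell by the same test, so the members' share of rises was well above the background, and their share of falls below it. Dim genes weigh on that background. Without the dimmest 50% of probe sets, 20 of 27 members rose and 1 fell, beside 27.4% and 23.1% of the 697 genes left. The mean was higher in CL for 27 of the 28 members, against 42.0% of all genes, although rpp2b turned to -0.02 with centring on array medians and to -0.03 after a further quantile normalization. Their median log2 difference, CL minus CC, was 0.40, a 1.32-fold difference, beside a median of -0.08 over all 1108 genes. The changes were small: 3 of the 20 rises were at least 2-fold (5.96% of all genes rose that far), and 14 were under 1.5-fold. No member fell by the adjusted limma test, and 1 of the 28, EIF5, was lower at an unadjusted p under 0.05, beside 28.7% of all genes.

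The number of rises depended on whether arrays of the same number were treated as pairs. With the replicate number as a block in the limma fit, 5 of the 28 members rose and 0 fell, while 8.21% of all genes rose. The 5 were rpp2a-3 (adjusted p = 0.0247), RPL10 (0.0385), rpl30 (0.0426), rpp2a-2 (0.0428) and RPL19 (0.0490). The other 15 rises then had adjusted p-values from 0.0502 to 0.144, at the same log2 differences. All values below are without the block unless it is named.

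All 3 CL arrays lay above all 3 CC arrays for 23 of the 28 members and below them for 1, whereas this held for 23.7% and 32.0% of all genes. The mean over the members was 10.16, 10.36 and 10.32 on CL replicates 1, 2 and 3 and 9.89, 9.83 and 9.80 on the CC replicates. CL replicate 1 was the lowest CL array for 17 of the 20 genes that rose. The count without the block also depended on single arrays: it was 12 without CL replicate 2, 9 without CL replicate 3, 11 without CC replicate 2, 13 without CC replicate 3, and 17 without replicate 1 of either section. The share of all genes that rose went down with it, to 13.4%, 9.75%, 12.3% and 12.5% in the same order of the 4 arrays named first. Of the 20 genes, 9 passed whichever array was left out. In whole tissue, more RNA of these genes per cell and more cells that are rich in it cannot be told apart.

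**Figure D1:**
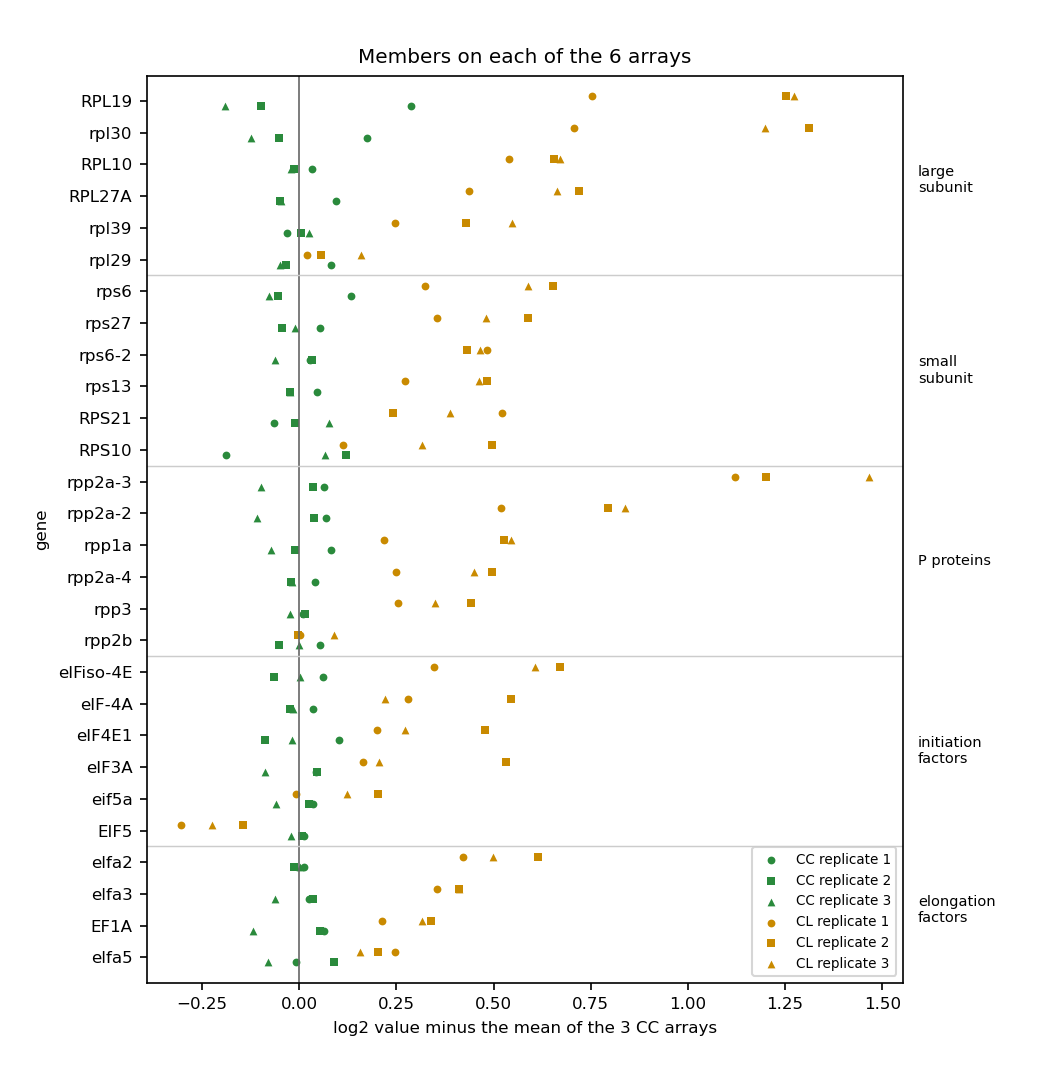
Log2 value of each of the 28 members on each array (x axis, relative to that gene's mean on the 3 CC arrays), with genes on the y axis grouped by role. Green points are CC arrays, yellow points are CL arrays and the marker shape gives the replicate; in 23 genes all CL points lie to the right of all CC points, and in EIF5 they lie to the left.

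**Figure D2:**
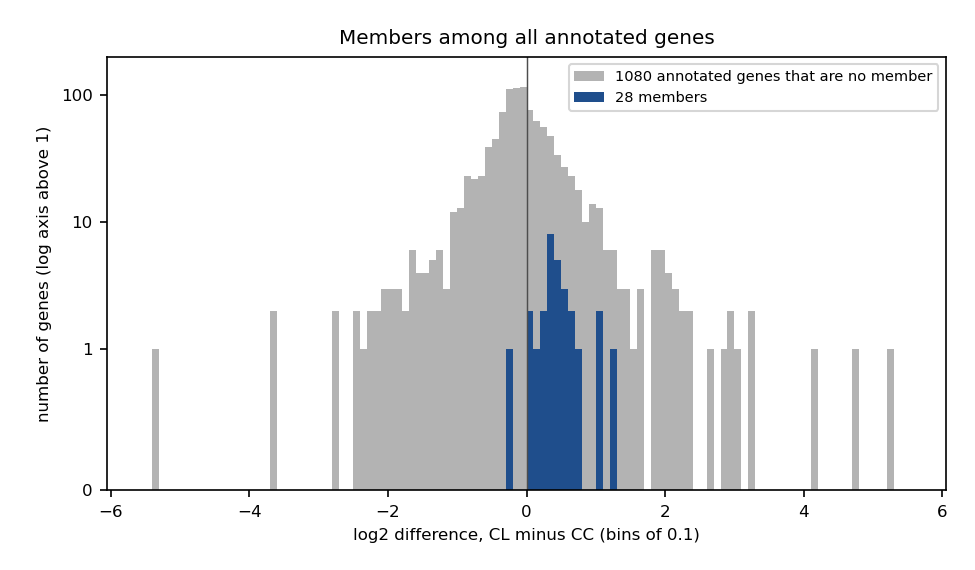
Number of annotated genes (y axis, logarithmic above 1) by log2 difference, CL minus CC (x axis, bins of 0.1). Grey bars are the 1080 genes that are no member and blue bars the 28 members, of which 27 lie right of 0 with a highest difference of 1.26.

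Of the 6 large subunit genes, 5 rose, 0 fell and rpl29 did not pass, with a median log2 difference of 0.61. The largest of these rises was that of RPL19 (NCBI gene 542284), also named csu36b(rpL19), whose protein forms a contact between the subunits in yeast. Its values were 9.38, 9.88 and 9.90 on the CL arrays and 8.91, 8.53 and 8.43 on the CC arrays. The sections did not overlap, although replicate 1 of either section lay nearest the other, and the change was 1.09 (SE 0.18), or 2.13-fold, with a limma adjusted p of 0.00715. For rpl30 (NCBI gene 541668), whose protein binds its own transcript in yeast, the CL arrays read 9.47, 10.07 and 9.96 and the CC arrays 8.94, 8.71 and 8.64. Again replicate 1 of each section was nearest the other, and the change was 1.07 (SE 0.17), or 2.10-fold.

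RPL10 (NCBI gene 542298), which in yeast joins the large subunit late in its assembly, read 11.77, 11.88 and 11.90 in CL against 11.26, 11.22 and 11.21 in CC. The arrays of a section lay close together, and the limma adjusted p of 0.00358 was the smallest of the large subunit, at a change of 0.62 (SE 0.08). A further probe set of RPL10 gave 0.64 (SE 0.08). RPL27A (NCBI gene 542443) read 10.45, 10.73 and 10.68 in CL and 10.11, 9.96 and 9.97 in CC, a 1.52-fold difference without overlap. The gene rpl39 (NCBI gene 542444), whose small protein lines the exit tunnel in yeast, read 9.62, 9.80 and 9.92 in CL and 9.34, 9.37 and 9.40 in CC. Its rise of 0.41 (SE 0.10, limma adjusted p = 0.0226) was lost without CL replicate 2, CL replicate 3, CC replicate 2 or CC replicate 3 (adjusted p between 0.0528 and 0.0862). The other 4 large subunit rises passed with any array left out. With the replicate block RPL19, rpl30 and RPL10 passed, and the adjusted p was 0.0523 for RPL27A and 0.0739 for rpl39. By contrast rpl29 (NCBI gene 541790) read 12.03, 12.07 and 12.17 in CL and 12.09, 11.98 and 11.96 in CC. Its sections overlapped, and the 95% interval of its change ran from -0.12 to 0.28, which holds neither the change of RPL19 nor that of rpl30. With a mean level of 12.05, rpl29 was brighter than both, and RMA compresses differences of very bright probe sets. Of the 3 members with a mean level of 12 or more, rpl29 and eif5a did not pass and elfa2 rose.

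Small subunit genes changed by less than 2-fold, with 5 of 6 rising, 0 falling and a median log2 difference of 0.43. The gene rps6 (NCBI gene 542529) encodes the subunit's protein that S6 kinase phosphorylates in response to the TOR kinase, and rps6-2 (NCBI gene 542640) carries the same protein name. On the CL arrays rps6 read 10.34, 10.66 and 10.60, and on the CC arrays 10.15, 9.96 and 9.93. The values of rps6-2 were 10.75, 10.70 and 10.73 in CL against 10.30, 10.30 and 10.21 in CC. Neither gene's sections overlapped, and rps6-2 varied less within a section than rps6 did. The changes were 0.52 (SE 0.12, limma adjusted p = 0.0172) for rps6 and 0.46 (SE 0.08, limma adjusted p = 0.00704) for rps6-2. All 4 probe sets paired with rps6 rose, by 0.47 to 0.66. The call of rps6 was lost without CL replicate 2, CL replicate 3, CC replicate 2 or CC replicate 3 (adjusted p between 0.0540 and 0.0722), whereas rps6-2 passed with any array left out. Under the replicate block 0 of the 6 small subunit genes passed, and the smallest adjusted p was 0.0546, for rps6-2.

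Values of rps27 (NCBI gene 542617), a small subunit protein gene, were 11.36, 11.60 and 11.49 in CL and 11.06, 10.96 and 11.00 in CC. For rps13 (NCBI gene 542726), another gene of the subunit, they were 9.76, 9.97 and 9.95 in CL and 9.54, 9.47 and 9.47 in CC. Neither gene's sections overlapped, and the changes were 0.47 (SE 0.09) for rps27 and 0.41 (SE 0.09) for rps13. RPS21 (NCBI gene 542449) was the dimmest member, at 5.35, 5.07 and 5.22 in CL and 4.77, 4.82 and 4.91 in CC, and here CL replicate 1 was the highest array. It rose by 0.38 (SE 0.10, limma adjusted p = 0.0281). Without CL replicate 1, CL replicate 3, CC replicate 1 or CC replicate 2 the adjusted p of RPS21 was 0.0626 to 0.0935. That of rps13 was 0.0554 to 0.0745 without CL replicate 2, CL replicate 3 or CC replicate 2, and rps27 passed with any array left out but had 0.0647 with the replicate block.

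RPS10 (NCBI gene 541869) read 6.96, 7.35 and 7.16 in CL and 6.66, 6.97 and 6.92 in CC. Its sections overlapped, with CL replicate 1 below CC replicate 2, and with a difference of 0.31 (95% interval -0.01 to 0.62, limma adjusted p = 0.118) it did not pass. Without RPS10 the count of members was 20 rises among 27.

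Of the 6 P protein genes, 5 rose, 0 fell and rpp2b did not pass, with a median log2 difference of 0.41. P1 and P2 proteins pair to form the stalk, and P3 is a form found in plants. Among them rpp2a-3 (NCBI gene 542338) had the largest rise of all 28 members. Its arrays read 8.17, 8.25 and 8.52 in CL and 7.11, 7.09 and 6.95 in CC. The lowest CL array lay 1.06 above the highest CC array, and the change of 1.26 (SE 0.11) was 2.40-fold, with a limma adjusted p of 0.00178. It ranked 46 among the differences of the 1108 genes, counted from the largest rise.

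The sister genes rpp2a-2 (NCBI gene 542337) and rpp2a-4 (NCBI gene 542551) rose by less. On the CL arrays rpp2a-2 read 9.80, 10.07 and 10.11, against 9.35, 9.32 and 9.17 on the CC arrays. The values of rpp2a-4 were 9.89, 10.14 and 10.09 in CL and 9.68, 9.62 and 9.62 in CC. Neither overlapped between sections, and the changes were 0.72 (SE 0.11) and 0.40 (SE 0.09). The change of rpp2a-3 exceeded that of rpp2a-2 by 0.54 (SE 0.07) and that of rpp2a-4 by 0.86 (SE 0.10), and the change of rpp2a-2 exceeded that of rpp2a-4 by 0.32 (SE 0.06). In each of these 3 pairs the difference between the genes did not overlap between the sections. The exact two-sided permutation p was 0.1 in each, the smallest that 3 against 3 arrays allow, so no pair could pass 0.05. Adjusted over the 11 pairs of like-named genes compared, it was 0.122.

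Of the remaining P proteins, rpp1a (NCBI gene 542719) read 10.08, 10.39 and 10.40 in CL and 9.94, 9.85 and 9.79 in CC. The P3 gene rpp3 (NCBI gene 542339) read 11.11, 11.30 and 11.20 in CL and 10.86, 10.87 and 10.83 in CC. Neither overlapped, and the rises were 0.43 (SE 0.11) and 0.35 (SE 0.08). Both were lost, as was that of rpp2a-4, without CL replicate 2, CL replicate 3, CC replicate 2 or CC replicate 3. The limma adjusted p without those arrays was 0.0827 to 0.109 for rpp1a, 0.0597 to 0.0817 for rpp3 and 0.0564 to 0.0834 for rpp2a-4. When a gene was read as the mean over its probe sets, it was 0.0896 for rpp1a and 0.297 for rpp3, at changes of 0.25 and 0.12. In the fit with the replicate block rpp2a-3 and rpp2a-2 passed, and the adjusted p was 0.0876 for rpp2a-4, 0.0922 for rpp3 and 0.104 for rpp1a. The gene rpp2b (NCBI gene 542340), of the other P2 type, read 10.76, 10.76 and 10.85 in CL and 10.81, 10.71 and 10.76 in CC. Its sections overlapped, and its change of 0.03 had a 95% interval from -0.16 to 0.22, below the changes of rpp2a-2 and rpp2a-3.

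**Figure D3:**
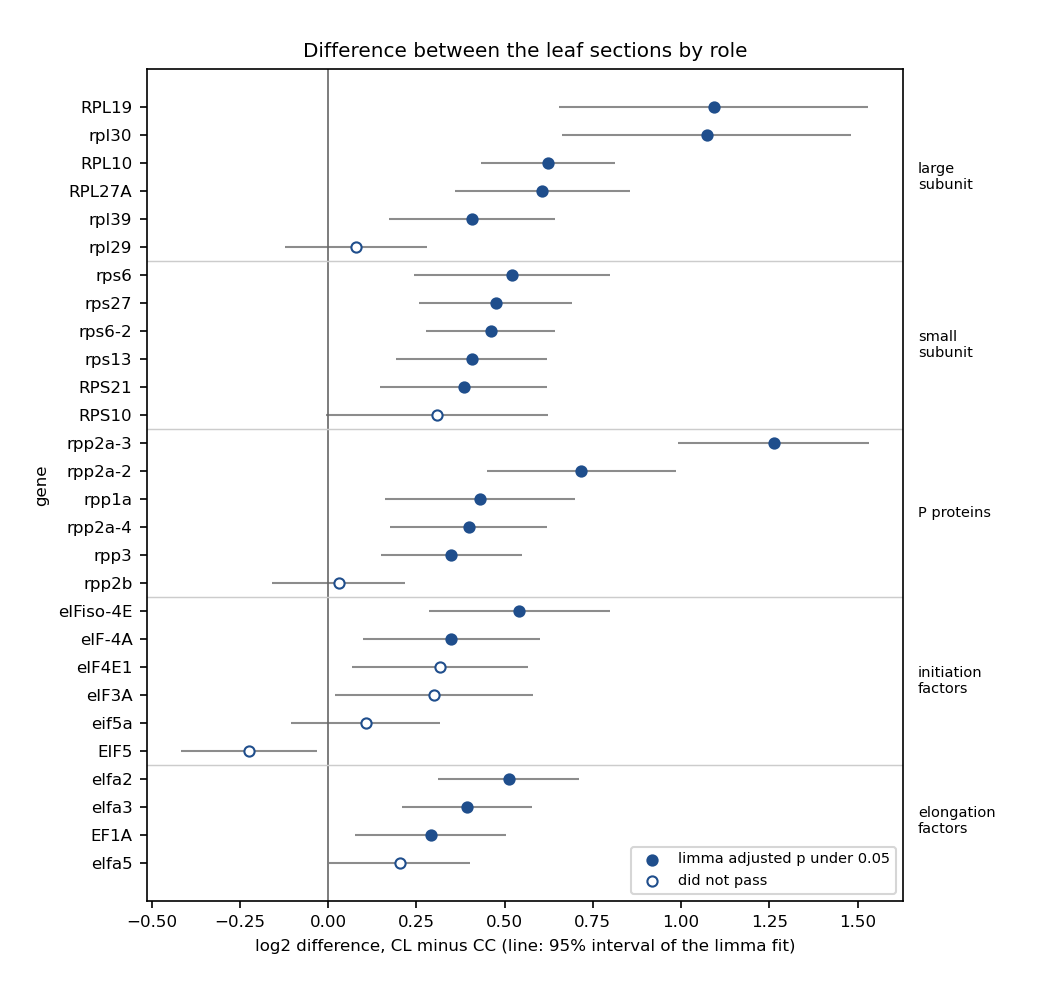
Log2 difference, CL minus CC (x axis), of each member (y axis, grouped by role), with the 95% interval of the limma fit as a line. Filled points passed a limma adjusted p of 0.05 and open points did not; rpp2a-3, RPL19 and rpl30 lie above 1, and EIF5 is the only point left of 0.

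Initiation factor genes gave fewer calls than any ribosomal group by count, a difference that was not tested. Of the 6, 2 rose, 0 fell and 4 did not pass, with a median log2 difference of 0.31. Among all genes 18.7% rose and 19.9% fell, and 27.4% rose without the dimmest 50% of probe sets. Thus 2 rises of 6 do not set the group clearly apart from the background. All CL arrays lay above all CC arrays for 4 of the 6 and below them for 1, beside 23.7% and 32.0% of all genes. Over all translation factors, 5 of 10 rose, beside 15 of 18 ribosomal protein genes, and with the replicate block these counts were 0 and 5. The adjusted p with the block was 0.0635 for eIFiso-4E and 0.120 for eIF-4A. The cap-binding factor exists in plants as eIF4E and as the isoform eIFiso4E. The arrays of eIFiso-4E (NCBI gene 541708) read 9.33, 9.65 and 9.59 in CL and 9.04, 8.92 and 8.98 in CC, without overlap. Those of eIF4E1 (NCBI gene 542608) read 9.00, 9.28 and 9.07 in CL and 8.90, 8.71 and 8.78 in CC, also without overlap but with a gap of 0.10. For eIFiso-4E the rise was 0.54 (SE 0.11). Its limma adjusted p was 0.0118, and leaving out CL replicate 3 made it 0.0552. The difference of 0.32 (SE 0.10) for eIF4E1 had a limma adjusted p of 0.0582 and did not pass. It did pass, at 0.0473, with adjustment over the annotated genes, at 0.0425 without the dimmest 50% of probe sets and at 0.0110 with array weights. The change of eIFiso-4E exceeded that of eIF4E1 by 0.23 (SE 0.06), with an exact permutation p of 0.1, the smallest possible. A further probe set of eIFiso-4E gave 0.26 (SE 0.11) and did not pass.

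The RNA helicase gene eIF-4A (NCBI gene 541649) read 10.90, 11.16 and 10.84 in CL and 10.65, 10.60 and 10.60 in CC. CL replicate 2 stood above the other CL arrays, and the rise of 0.35 (SE 0.11) had a limma adjusted p of 0.0450, close to the threshold. It was 0.0621 with centring on array medians, 0.0948 after a further quantile normalization, and 0.0640 to 0.123 when any 1 of CL replicates 1, 2 and 3 or CC replicates 1, 2 and 3 was left out. The same CL array was highest for eIF3A (NCBI gene 542747), a subunit of the factor that scaffolds initiation. Its values were 8.65, 9.02 and 8.69 in CL and 8.53, 8.53 and 8.40 in CC. Its difference of 0.30 (95% interval 0.02 to 0.58, limma adjusted p = 0.0947) did not pass.

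The gene eif5a (NCBI gene 542537) encodes a factor that carries the modified residue hypusine and helps ribosomes past difficult stretches. It read 12.44, 12.65 and 12.57 in CL and 12.48, 12.47 and 12.39 in CC, and its sections overlapped. Its difference was 0.11 (95% interval -0.11 to 0.32). EIF5 (NCBI gene 542450), which triggers GTP hydrolysis when the start codon is found, was the 1 member with a lower mean in CL. It read 10.68, 10.84 and 10.76 in CL and 11.00, 11.00 and 10.97 in CC, so the CL arrays lay below the CC arrays. Its difference of -0.22 (SE 0.08) had a limma adjusted p of 0.0742 and did not pass. It did pass as lower with an intensity trend (0.0429), after a further quantile normalization (0.0357), without the dimmest 50% of probe sets (0.0473) and with array weights (0.0162).

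Of the 4 elongation factor 1-alpha genes, 3 rose, 0 fell and elfa5 did not pass, with a median log2 difference of 0.34. These genes belong to a family of much alike sequences. The chosen probe sets of elfa2 and elfa3 end in _x_at and that of EF1A in _s_at, endings that mark probes that can also bind other transcripts, so the split between the genes is uncertain. In the RefSeq gene order, elfa3 and elfa2 are neighbours with 0 protein-coding genes between them.

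The gene elfa2 (NCBI gene 100037748) read 12.20, 12.39 and 12.27 in CL and 11.79, 11.76 and 11.78 in CC. For elfa3 (NCBI gene 542620) the values were 11.76, 11.81 and 11.82 in CL and 11.43, 11.44 and 11.34 in CC. The CC arrays of elfa2 had an SD of 0.01, and neither gene's sections overlapped. The rises were 0.51 (SE 0.08, limma adjusted p = 0.00675) for elfa2 and 0.39 (SE 0.08, limma adjusted p = 0.0116) for elfa3. Leaving out CL replicate 3 made the adjusted p of elfa3 0.0561. With the replicate block it was 0.0502 for elfa2, 0.0717 for elfa3 and 0.144 for EF1A. EF1A (NCBI gene 542581) read 11.68, 11.81 and 11.79 in CL and 11.53, 11.52 and 11.35 in CC. Its rise of 0.29 (SE 0.09) passed with a limma adjusted p of 0.0489. That p was 0.0885 with centring on array medians, and 0.0592 to 0.148 when any 1 of CL replicates 1, 2 and 3 or CC replicates 1, 2 and 3 was left out. The gene elfa5 (NCBI gene 542555) read 10.86, 10.82 and 10.77 in CL and 10.61, 10.70 and 10.53 in CC. Its sections did not overlap, yet the difference of 0.20 (SE 0.08, limma adjusted p = 0.107) did not pass. Of the 6 pairs among these genes, the difference between their changes was largest for elfa2 and elfa5, at 0.31 (SE 0.09). The exact permutation p was 0.2 for elfa5 and EF1A and 0.1 for the other pairs. With 3 against 3 arrays 0.1 is the smallest possible, so no pair could pass 0.05, whether or not the genes changed alike. In each pair at 0.1 the difference between the genes did not overlap between the sections.

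Of the 28 members, 9 had more than 1 probe set, and their 19 further probe sets played no part in the counts above. Of these 19, 11 rose, 0 fell and 8 did not pass by the adjusted limma test, and 16 had a higher mean in CL. Of all probe sets 15.9% rose, 15.2% fell and 44.2% had a higher mean in CL. With the replicate block 1 of the 19 rose and 0 fell, beside 1020 and 850 of all 17555 probe sets. The 11 that rose changed by 0.29 to 0.66 and had mean log2 values from 7.59 to 11.52, and the 8 that did not pass had mean values from 4.43 to 7.78. Further probe sets of rps6, rpl39 and RPL10 all rose. Of 4 further probe sets of elfa3, 3 rose and the dimmest gave -0.01, and of 4 of elfa2, 2 rose, with a change of -0.03 for 1 of the others. A dim probe set of rpp3 gave -0.28 (SE 0.09, limma adjusted p = 0.0523), opposite in sign to its 2 brighter probe sets. The 2 further probe sets of EF1A gave 0.09 and 0.15 and did not pass. Without probe sets ending in _x_at or _s_at, EF1A had an adjusted p of 0.251, and 19 of 28 members rose.

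**Figure D4:**
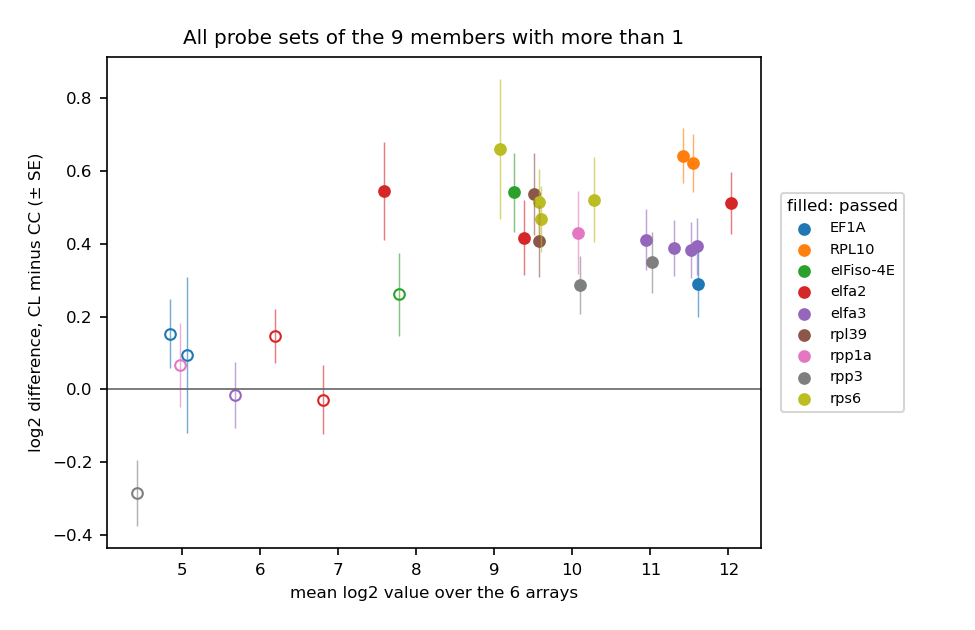
Log2 difference, CL minus CC, ± SE (y axis) against the mean log2 value over the 6 arrays (x axis) for every probe set of the 9 members with more than 1, coloured by gene. Filled points rose by the limma test and open points did not pass; open points lie at mean values of 4.43 to 7.78.

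Beside the members, 15 annotated genes were listed because their names matched patterns for translation and its surroundings, without a check of their roles. By the adjusted limma test 4 of the 15 rose, 1 fell and 10 did not pass, while 18.7% of all genes rose and 19.9% fell. The median log2 difference of the 15 was 0.18, beside -0.08 over all genes. Their mean levels ran from 2.89 to 13.25, and detection was not assessed. The rises were all among chaperones. None of the 15 passed with the replicate block, with a smallest adjusted p of 0.0657. Genes of this list that did not pass are given next, chosen after their values were seen. The plastid ribosomal protein gene prpl35-1 had a log2 difference of 0.09 (SE 0.08). The S6 kinase gene S6K, whose product phosphorylates the rps6 protein, had 0.35 (SE 0.12, limma adjusted p = 0.0682), and the TOR kinase gene 0.01 (SE 0.11). The translationally controlled tumor protein gene TCTP had 0.22 (SE 0.08), the RNA helicase gene drh1 -0.03 and the ribosome-inactivating protein gene RIP -0.26. Of 4 genes named as glycine-rich proteins, GRP fell by 0.27 (SE 0.08, limma adjusted p = 0.0489). No gene matched the patterns for aminoacyl-tRNA synthetases, poly(A)-binding proteins or polyubiquitin. Of 5 chaperone genes of the hsp70, hsp101 and bip names, which fold new proteins among others, 4 rose and 0 fell, led by b-70 at 1.06 (SE 0.29) and bip2 at 1.01 (SE 0.28), proteins of the endoplasmic reticulum.

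Of 10 genes of dividing cells, for cyclins, histones and PCNA, 2 rose and 0 fell by the adjusted limma test, beside 18.7% and 19.9% of all genes. The rises were 0.73 for cycD2 and 0.51 for magi81248. All CL arrays lay below all CC arrays for 4 of the 10 and above them for 2, beside 32.0% and 23.7% of all genes. The median log2 difference of the list was -0.07. An unadjusted limma p of 0.05 was passed by 4, 2 of them lower, beside 578 of all 1108 genes, 318 of them lower. The mean of the 10 genes lay at 5.58 to 5.62 in CL and 5.52 to 5.60 in CC. Of 12 expansin genes, which loosen walls of growing cells, 1 rose and 5 fell, and their mean was 4.09 to 4.17 in CL and 4.75 to 4.93 in CC. Mean levels of single genes ran from 2.66 to 10.10 in the dividing cell list and from 3.17 to 5.93 among the expansins. The 25th percentile of the arrays lay at 3.95 to 4.15, so several of these genes were dim, and their detection was not assessed. Among cell type markers, 2 of 4 genes listed as mesophyll rose and 0 fell, at a mean of 10.87 to 11.00 in CL and 10.48 to 10.68 in CC. The rises were 0.75 for MZPPT1 and 0.56 for PDK1, while pep1 and C4ppdkZm1 both had 0.05 and did not pass. The section means of pep1 and C4ppdkZm1 were 13.22 to 13.32, close to the array maxima of 13.50 to 13.74, where RMA compresses differences. PDK1 was listed by its name alone and is a different gene from C4ppdkZm1. Whether PDK1 marks mesophyll was not checked, and the count and mean of the 4 include it. Of 3 bundle sheath genes 0 rose and 1 fell, at a mean of 12.59 to 12.64 in CL and 12.72 to 12.77 in CC. Their single mean levels were 12.04 to 13.15, also in the bright range. Both epidermis genes fell, with a mean of 4.14 to 4.40 in CL and 5.20 to 5.56 in CC. The log2 difference was -1.73 for gl1 and -0.33 for EREB55. EREB55 was dim, with means of 3.18 in CL and 3.50 in CC, and its detection was not assessed. The vascular gene sut1 also fell, at 9.62 to 10.35 in CL and 10.46 to 10.99 in CC. With the replicate block 1 dividing cell gene and 1 mesophyll gene rose, 4 expansin genes, 1 epidermis gene and 1 photosystem gene fell, and no bundle sheath gene, sut1 or ChlI passed. The part of these shifts in the rise of ribosomal genes was not tested.

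The pattern over the 6 arrays was described by the mean of the 28 members, each centred on its own mean, and compared with 952 other genes that have an informative name. The most like were stm1 (Pearson r = 0.996), abp1 (0.994), HIT2 (0.994), phb1 (0.993) and hsp70-4 (0.993). Their log2 differences were 0.97, 0.72, 2.13, 0.79 and 0.46. The genes with the most opposite pattern were pDCT1 (-0.998), pip (-0.997) and zfp30 (-0.997), with log2 differences of -1.37, -1.92 and -0.47. These correlations share the same 6 arrays and the difference between the sections, and they are given as a description.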

How the data were processed

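The deposited table holds RMA expression values on a log2 scale for 17555 probe sets and 6 arrays. Per the submitters' processing notes the authors used RMA, limma and Affymetrix Expression Console; the sources used here give no versions. RMA compresses differences of dim and very bright probe sets, and the table holds no detection calls, so detection above background was not assessed. Per-sample columns left unused numbered 0.

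Gene names came from GEO's old annotation of the array, with synonyms from a RefSeq table of assembly Zm-B73-REFERENCE-NAM-5.0 by gene ID (1060 of 1108 genes matched). A gene was read from its probe set with the highest mean. Limma 3.58.1 in R 4.3.3 (linear model and empirical Bayes, CL minus CC, no block, no filter) was fitted to all probe sets, with Benjamini-Hochberg adjustment over all of them and a threshold of 0.05. SE and 95% intervals are moderated. The fit was tested on simulated data. Pairs of like-named genes were compared by exact permutation in scipy 1.17.1. Alternatives were a replicate block, variance settings, scalings, filters, adjustment over genes and arrays left out.

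Every member is described. Of other translation genes, the rule named the 2 largest called differences per list, and the report adds some that did not pass. Of genes with a like pattern, the 5 highest and 3 lowest correlations were named. Members and lists were chosen with earlier results of these data known. Promoter and protein sequences were not analysed here. P-values measure the spread between the labelled biological replicates.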

Additional observations from a re-analysis of the deposited data

How the results depend on the processing

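Of 503 results for single members under the alternatives, 421 kept their side of the threshold, 75 lost the call and 7 gained one. Of the 421, 3 changed sign, all of rpp2b, which was not called, and 0 called differences changed sign. The rises of members ranged from 9 to 17 when 1 array was left out, with 0 falls in each such run. Their median log2 difference then ranged from 0.38 to 0.46. In those runs probe sets higher in CL ranged from 1308 to 2818 and lower from 1082 to 2865, and genes higher from 108 to 190 and lower from 103 to 234. At an adjusted p of 0.01, 8 members, 94 genes and 1126 probe sets were higher and 87 genes and 867 probe sets lower. Array weights gave 4388 probe sets higher and 4940 lower, 360 genes lower and 1 member lower. An intensity trend, a further quantile normalization and leaving out the dimmest 50% of probe sets each also gave 1 member lower, EIF5, and the last left 1656 probe sets lower. Matched by current symbol alone, 1 of 2 members rose. Leaving out RPS10 and leaving out _x_at and _s_at probe sets were chosen after seeing the data. The cause of these changes was not tested, other than the fewer arrays or probe sets of some alternatives. Deviations of same-numbered arrays from their section means correlated at -0.54, -0.35 and -0.39. Those of arrays with different numbers correlated at -0.009 to 0.39. Neither these values nor the labels settle whether arrays of the same number are paired. With the replicate block 5 members, 91 genes and 1020 probe sets were higher and 86 genes and 850 probe sets lower.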
